A study of Mus musculus with 5 samples.

Results

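The antioxidant and redox genes followed here are 10 genes chosen by symbol: the glutathione peroxidases Gpx1, Gpx2, Gpx3 and Gpx4, the superoxide dismutases Sod1 and Sod2, catalase (Cat), the peroxiredoxin Prdx4, the quinone reductase Nqo1 and the thioredoxin inhibitor Txnip. They are 10 of the 32285 genes in each count matrix, and all 10 had UMIs (unique molecular identifiers, each standing for 1 captured RNA molecule). The libraries came from hand-picked pancreatic islets of 5 mice, dissociated with trypsin and sequenced 1 mouse per library with the 10x Genomics 3 prime chemistry. All mice carried the genotype NOD.SCID on the strain NOD.Cg-Prkdcscid/J, a diabetes-prone background whose scid mutation leaves the mice without mature T and B cells. Chow mice 1, 2 and 3 were 8, 10 and 10 weeks old. HC mice 1 and 2, on a diet of 20% hydrolyzed casein (HC, casein cut into small peptides), were 7 and 9 weeks old. HC mouse 2 carries a title that says chow and a diet label that says HC. It was kept as HC, because the design text lists 2 mice on HC and 3 on chow.

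Superoxide, a by-product of respiration, is turned into hydrogen peroxide by superoxide dismutases. The peroxide is removed by catalase, by the glutathione peroxidases and by the peroxiredoxins, many but not all of which draw on thioredoxin. Txnip binds and inhibits thioredoxin, and in islets it is known as a gene that glucose induces. Beta cells are known for low amounts of catalase and glutathione peroxidase compared with other tissues.

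After filtering, 22758 cells remained, between 3656 and 5122 per mouse, with a median of 5147 to 6958 UMIs per cell. Pairs of libraries shared between 4 and 14 barcodes. Cell types were assigned to clusters built without the 10 genes, and 7 types with enough cells in every mouse were compared: 10952 beta, 4944 alpha, 2278 delta, 824 endothelial, 456 macrophage, 337 stromal and 285 ductal cells. Statements of highest and lowest levels refer to these 7 types. Levels are given as CPM, the UMIs of a gene per 1000000 UMIs of a cell type in a mouse. Hormone genes took 69.2% of the UMIs of beta cells (mean of 5 mice), 44.9% in alpha, 29.1% in delta and 2.23% in endothelial cells, which lowers the level of every other gene in proportion. For tests, counts summed per mouse were therefore scaled with TMM, which sets the bulk of genes equal. Insulin RNA is also found in droplets of other types, where it made up 18.8% of macrophage, 24.8% of stromal and 13.6% of ductal UMIs.

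The stretches upstream of Gpx3, Prdx4 and Txnip are shown because these 3 genes were far lower in beta cells than in the other endocrine types. Each is the 250 bases before the RefSeq transcription start, read 5′ to 3′ on the gene's strand from the C57BL/6J reference (GRCm38.p6), not from the NOD mice. Capitals mark the CCAAT box, the GC box (letters GGGCGG) and, in Prdx4, the E-box (letters CACGTG), on either strand.
Gpx3, chr11:54902604-54902853, plus strand: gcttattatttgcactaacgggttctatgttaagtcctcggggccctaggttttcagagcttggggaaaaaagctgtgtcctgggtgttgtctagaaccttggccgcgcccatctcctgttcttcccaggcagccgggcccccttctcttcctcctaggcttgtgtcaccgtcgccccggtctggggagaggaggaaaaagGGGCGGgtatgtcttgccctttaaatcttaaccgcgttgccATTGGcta
Prdx4, chrX:155338461-155338710, minus strand: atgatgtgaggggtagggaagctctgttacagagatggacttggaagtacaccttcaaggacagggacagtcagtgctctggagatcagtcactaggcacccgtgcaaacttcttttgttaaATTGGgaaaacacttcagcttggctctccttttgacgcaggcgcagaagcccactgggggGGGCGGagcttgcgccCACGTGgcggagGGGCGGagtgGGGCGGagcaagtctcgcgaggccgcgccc
Txnip, chr3:96557707-96557956, plus strand: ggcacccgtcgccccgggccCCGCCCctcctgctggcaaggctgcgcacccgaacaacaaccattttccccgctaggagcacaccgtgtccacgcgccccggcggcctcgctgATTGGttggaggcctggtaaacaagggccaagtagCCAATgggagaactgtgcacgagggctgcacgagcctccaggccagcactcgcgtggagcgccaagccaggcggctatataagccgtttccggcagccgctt
Over windows from 250 bases before to 50 after the start, the CCAAT box was in 37.4% and the GC box in 35.7% of 32851 RefSeq promoters. Of 13 promoter entries for the 10 genes, 10 held the former and 11 the latter. Some of the 13 are overlapping entries of Gpx4, so the same boxes are counted more than once. By gene, only Gpx1 and Nqo1 had no CCAAT box and only Gpx2 had no GC box. The exact letters CACGTG of this E-box were in 7.15% of all promoters and, among the 13, only in that of Prdx4. E-boxes with other letters, and pairs of E-boxes, were not searched for. The match therefore does not show which promoters, that of Txnip included, hold a carbohydrate response element. The core of the antioxidant response element, TGACNNNGC, was in 12.4% of all promoters and, among the 13, only in that of Sod1. These are letter matches and not measured binding.

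Gpx3 encodes the secreted glutathione peroxidase and separated beta from alpha and delta cells more than any other of the 10 genes that could be tested. In alpha cells its level was 1101, 1077 and 1086 CPM in chow mice 1, 2 and 3, and 1081 and 1089.6 in HC mice 1 and 2. In delta cells it was 814, 789.8 and 727 in the chow mice and 812 and 852 in the HC mice. In beta cells it was 13.6, 15.2 and 14.9 in the chow mice and 18.9 and 19.0 in the HC mice. Every alpha and delta value thus lay far above every beta value. On the TMM scale Gpx3 was lower in beta than in alpha cells by a log2 difference of -5.33 ± 0.09 (SE, adjusted p = 4.34e-19) and lower than in delta cells by -4.33 ± 0.06 (adjusted p = 2.36e-178), from edgeR's quasi-likelihood test with the mouse as a block. The very small p-values rest on a spread shared across all genes, and 5 mice stand behind each. At least 1 Gpx3 UMI was seen in 92.0% of alpha cells and 9.66% of beta cells. With each cell thinned to 1000 UMIs these shares were 60.9% and 1.89%. Endothelial cells, shallower at a median of 1181 to 2048 UMIs per mouse beside 6388 to 9614 in beta cells, had 2.66% and, thinned, 1.40%, so the thinned share of beta cells lay within the 0 to 3.26% of endothelial cells.

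Gpx3 was also found in stromal cells, at 324 ± 85.6 CPM (SD, n = 5), and in macrophages, where it ranged from 58.3 in chow mouse 1 to 367 in HC mouse 2. Droplets that hold another type's hormone matter here: a cell was called mixed when more than 5% of its UMIs were a hormone of another type. Of the 228 Gpx3 UMIs of the 456 macrophages, 207 were in the 96 mixed cells. Without them macrophages had 29.5 ± 17.9 CPM (SD, n = 5) and ductal cells fell from 61.7 to 6.67, while stromal cells stood at 450.4 and alpha cells at 1107. The difference between beta cells and macrophages, -2.29 ± 0.16 with all cells, was 0.29 without the mixed cells (adjusted p = 0.516). Stromal cells therefore kept a high level of Gpx3 without mixed cells and macrophages did not.

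**Figure D1:**
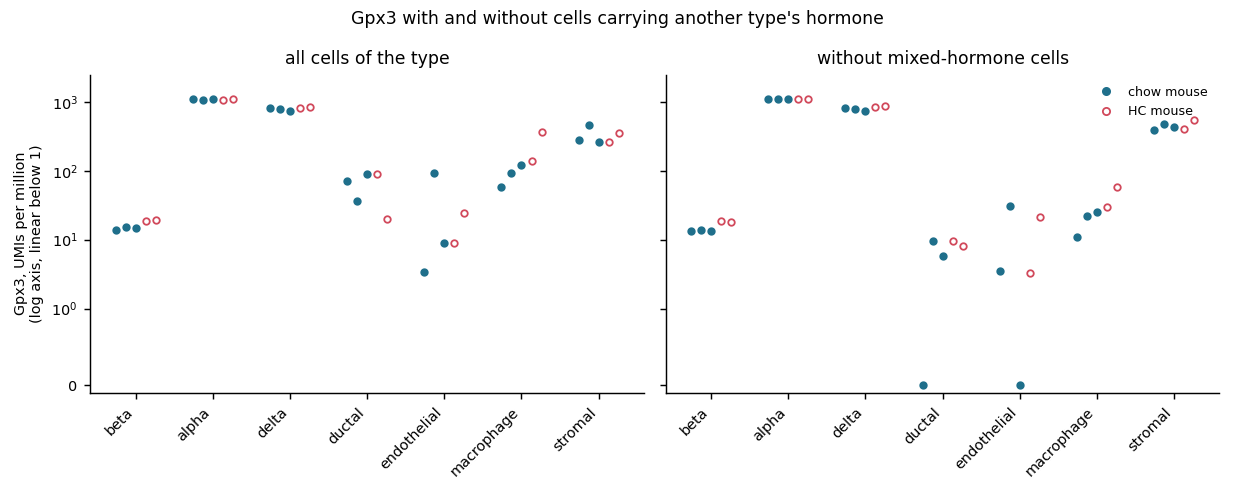
Gpx3 in CPM (log axis, linear below 1) by cell type, each point 1 mouse (filled chow, open HC), with all cells at left and without mixed-hormone cells at right. Alpha, delta and stromal points stay high at right, while no macrophage point exceeds 58.8.

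Gpx1, the cytosolic glutathione peroxidase, was highest in macrophages and low in beta and alpha cells alike. Macrophages had 535, 613 and 601 CPM in the chow mice and 687 and 712 in the HC mice. Beta cells had 49.5, 40.0 and 35.4 in the chow mice and 49.0 and 41.7 in the HC mice. Alpha cells, at 49.5 ± 3.29 (SD, n = 5), overlapped the beta values, and delta cells stood at 316 ± 37.2. Beta cells were lower than delta (-1.60 ± 0.06), ductal (-1.55 ± 0.11), macrophage (-2.97 ± 0.11), endothelial (-1.11 ± 0.11) and stromal cells (-0.77 ± 0.16), with adjusted p at most 1.8e-05 in edgeR. Against alpha cells the log2 difference was 0.53 ± 0.07 on the TMM scale but -0.20 in CPM.

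Gpx4, which reduces lipid peroxides in membranes, was present in all 7 types. Its mean ran from 144 ± 15.9 CPM in beta cells (SD, n = 5) through 189.9 ± 11.3 in alpha and 272 ± 16.6 in delta to 648 ± 65.5 in endothelial and 786 ± 119 in ductal cells. It was lower in beta than in ductal (-1.01 ± 0.10) and endothelial cells (-0.51 ± 0.09). Its small positive differences against alpha (0.33 ± 0.05) and delta cells (0.37 ± 0.06) turned negative in CPM. Gpx2, the epithelial form, was highest among the 7 compared types in ductal cells at 61.2 ± 21.5 CPM and was 10.8 ± 4.24 in beta cells. In endothelial cells only 2 Gpx2 UMIs were found.

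Sod2, the mitochondrial superoxide dismutase, was the member with the most even levels. Its mean lay between 68.2 ± 7.42 CPM in beta and 130.2 ± 9.61 in delta cells (SD, n = 5). On the TMM scale it was higher in beta cells than in each of the 6 other types, by 0.34 ± 0.06 against alpha to 1.27 ± 0.14 against endothelial cells, but in CPM it was lower in beta cells than in all 6. With hormone UMIs taken out of the totals, beta cells had the highest level, 221 CPM. Sod1, the copper and zinc enzyme of the cytosol, was highest in endothelial cells, at 272, 341 and 262 CPM in the chow mice and 208 and 206 in the HC mice. Beta cells had 36.6 ± 3.61 (SD, n = 5) and were lower than endothelial cells by -1.15 ± 0.11 (adjusted p = 4.68e-23), alpha cells by -0.19 and delta cells by -0.22. On the TMM scale beta cells were higher in Sod1 than ductal cells by 0.43, which turned to -1.05 in CPM. Macrophages, with 47 Sod1 UMIs, stood at 36.5 CPM and stromal cells, with 55, at 44.2, too few to pass the filter there.

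Cat, which splits hydrogen peroxide in peroxisomes, was close to absent in beta and alpha cells. Ductal cells had 81.8, 94.3 and 118 CPM in the chow mice and 60.8 and 122 in the HC mice. Beta cells had between 0.44 and 0.90 in the 5 mice, from 71 UMIs in all. Alpha cells had 4 Cat UMIs in all and none in chow mice 1 and 2, where a count of 0 allows up to 0.78 and 0.75 CPM. These limits cover counting error only. Cat was lower in beta cells than in delta (-1.41 ± 0.39), ductal (-5.55 ± 0.24), endothelial (-4.09 ± 0.35), macrophage (-4.19 ± 0.48) and stromal cells (-3.47 ± 0.55). Alpha cells held too few counts for a test.

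Prdx4, the peroxiredoxin of the endoplasmic reticulum, was low in beta cells on every scale tried. Beta cells had 32.1, 20.2 and 18.7 CPM in the chow mice and 26.2 and 19.5 in the HC mice. Alpha cells had 125 ± 11.2 and delta cells 221 ± 28.2 (SD, n = 5), and no mouse's beta value reached its alpha or delta value. The log2 difference ran from -1.38 ± 0.17 against macrophages to -1.98 ± 0.07 against delta cells, with adjusted p at most 2.61e-15. Nqo1, a classic target of the stress factor NRF2, was scarce everywhere. Beta cells held 303 of its UMIs, 3.14 ± 1.05 CPM (SD, n = 5), and alpha cells 22, or 1.11 CPM. Alpha cells by themselves had too few of its counts to pass the filter, so the test against them is not given here. In the other 5 types at most 5 Nqo1 UMIs were found in each.

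Txnip was lowest in beta cells and highest in endothelial cells. Beta cells had 25.4, 26.7 and 31.4 CPM in the chow mice and 26.4 and 25.7 in the HC mice. Endothelial cells had 787, 685 and 949 in the chow mice and 784 and 969 in the HC mice. Alpha cells stood at 135 ± 27.9, delta cells at 156 ± 56.4 and ductal cells at 497 ± 206 (SD, n = 5). Alpha and delta values overlapped, and all lay above the beta values. Beta cells were lower by -1.57 ± 0.07 against alpha, -1.21 ± 0.25 against delta (adjusted p = 0.017), -2.68 ± 0.11 against ductal and -3.28 ± 0.10 against endothelial cells. Without chow mouse 3 or without HC mouse 2 the adjusted p against delta cells was 0.054 and 0.066.

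**Figure D2:**
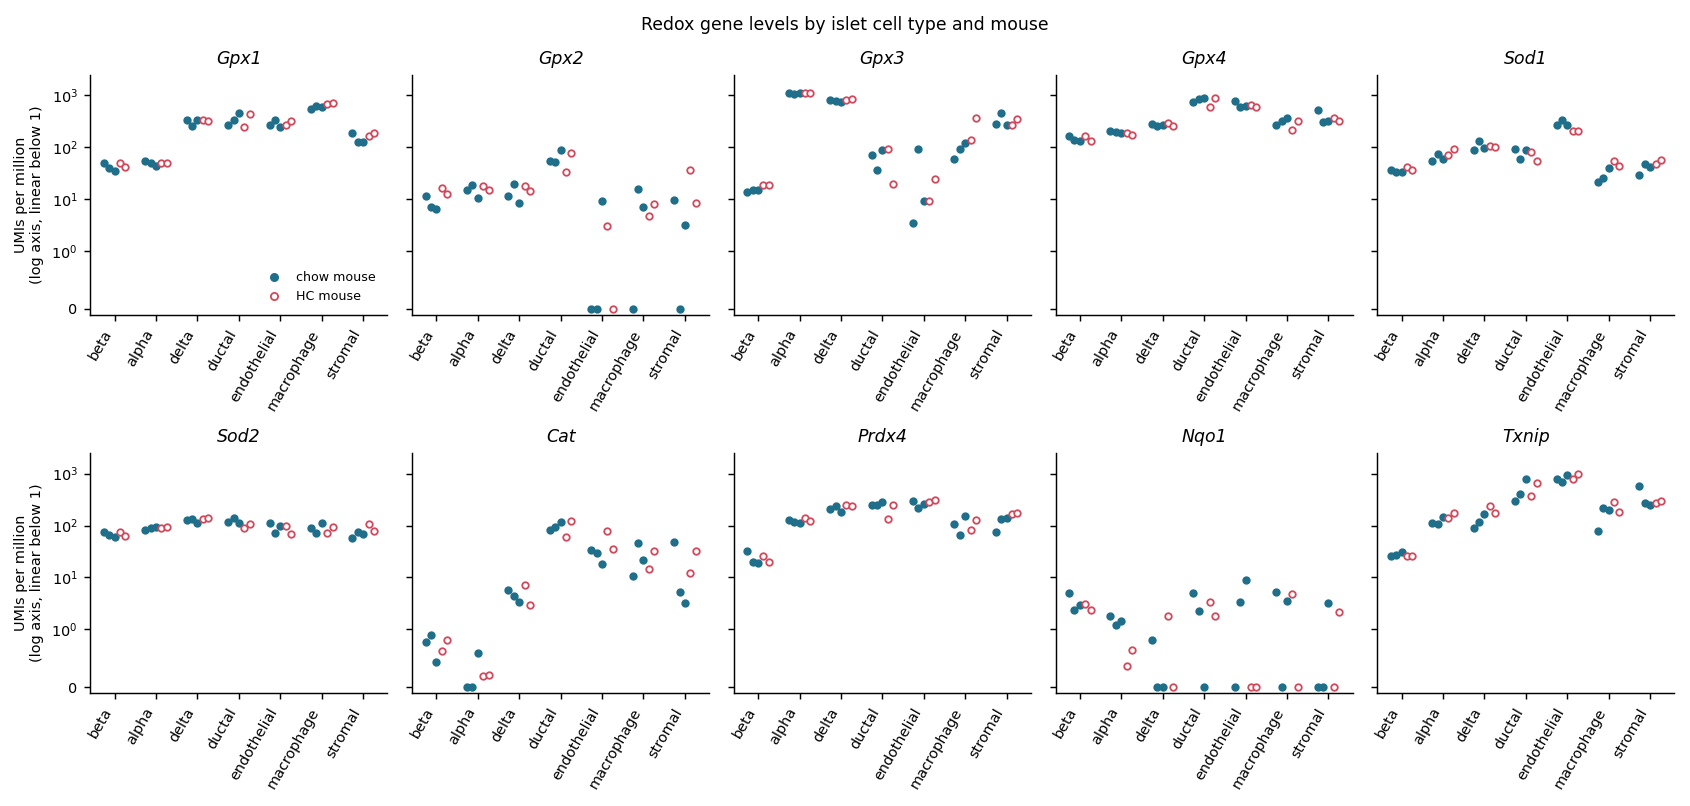
Levels of the 10 genes in CPM (log axis, linear below 1) by cell type, each point 1 mouse (filled chow, open HC). Gpx3 splits alpha and delta from beta cells, Cat is near 0 in beta and alpha cells, and Txnip rises from beta to endothelial cells.

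Counted over the 6 comparisons, 59 differences between beta cells and another type were tested for the 10 genes. Of these, 32 were called lower in beta cells, 20 higher and 7 were not called. In CPM, which place beta cells lower than the TMM scale does, 13 of the 20 higher calls were negative. All 32 lower calls kept their sign there, but the shift between the scales made this bound to happen, so it adds no support. The count filter favors genes that are high in beta cells. A gene with few counts in the other type can pass it through beta cells alone. This held for 9 of the 20 higher calls, those of Nqo1 against alpha, delta, ductal and endothelial cells, of Gpx2 against macrophage, endothelial and stromal cells, and of Sod1 against macrophage and stromal cells, and these 9 support nothing. Cat also passed through beta cells alone against delta, macrophage and stromal cells, and was called lower in beta cells there. Where a gene passed the filter in both types by itself, 44 differences were left, 29 called lower and 11 higher. Of all genes passing in this way, 29.1% were called lower against alpha, 25.1% against delta and 33.6% against ductal cells. The shares were 38.8% against endothelial, 36.7% against macrophage and 25.0% against stromal cells. For higher calls they were 33.0%, 32.0%, 26.8%, 28.9%, 26.9% and 25.5% in the same order. CPM place the median of all genes lower in beta cells by -0.66 (against macrophages) to -1.45 (against endothelial), and the TMM scale leaves a median of 0.25 against macrophages, 0.23 against endothelial and 0.18 against stromal cells. The background is large, and the counts beside it include those 9 calls. Against alpha cells 30.4% of all tested genes were called lower in beta cells and 31.5% higher, beside 4 and 4 of 9 of these genes. Against delta cells the shares were 25.0% and 28.3%, beside 6 and 4 of 10. For lower calls they were 25.9% against ductal (6 of 10), 26.6% against endothelial (6 of 10), 19.2% against macrophage (5 of 10) and 17.8% against stromal cells (5 of 10). For higher calls they were 27.3%, 37.0%, 24.0% and 20.1% in the same order, beside 3 of 10 each time. Among genes tested in all 6 comparisons, 1.96% of 11173 were lower in beta cells every time. Prdx4 and Txnip were 2 such genes among the 9 of the list tested in all 6. Higher in beta cells every time on the TMM scale were 7.8% of them, and 1 of the 9, Sod2.

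**Figure D3:**
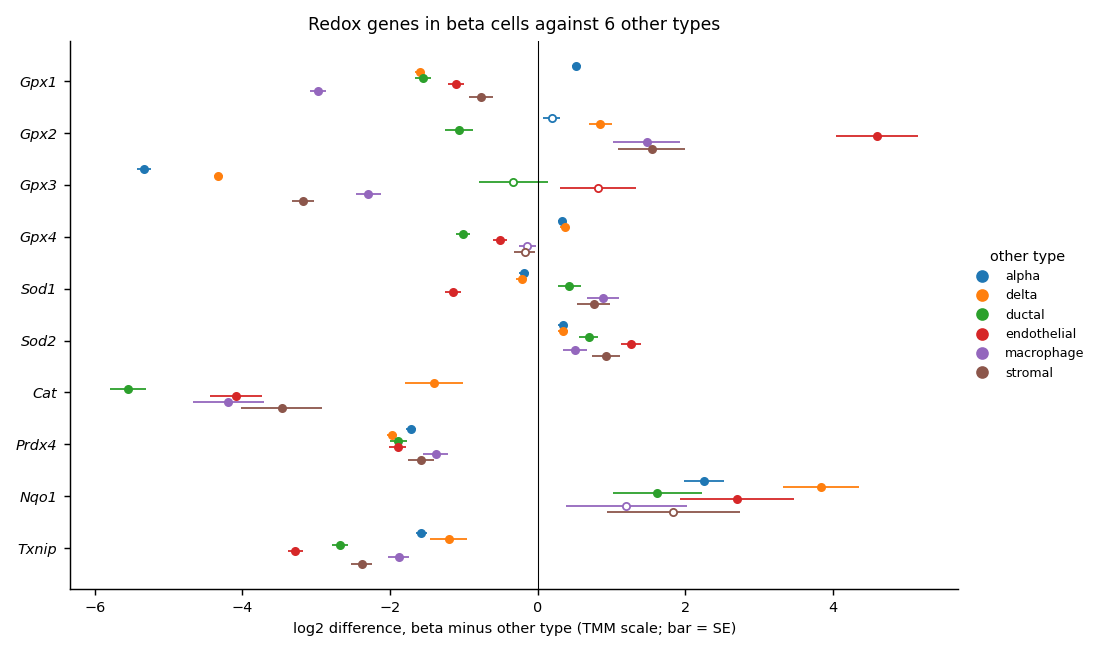
Log2 difference of beta cells minus each of 6 other types (TMM scale, bar SE, 5 mice, filled where adjusted p is under 0.05) for the 10 genes. Prdx4 and Txnip lie left of 0 against all 6 types; Sod2 lies right of 0 here but is negative in CPM against all 6, and 9 filled points of Nqo1, Gpx2 and Sod1 right of 0 passed the filter through beta cells alone.

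Other redox genes, from 6 lists of 91 genes, moved in both directions between beta and the other endocrine types. As a background, 31.5% of all tested genes were higher and 30.4% lower in beta than in alpha cells. Of the list of selenoproteins, which carry selenium, and of factors that make them (among them Scly, Sepsecs and Secisbp2), 14 of 19 tested were higher in beta than in alpha cells and 4 lower, with a median of 0.58 beside -0.01 over all genes. Selenos (1.14 ± 0.05) and Selenok (1.02 ± 0.05), both of the endoplasmic reticulum, were among those higher, and Selenon (-1.50 ± 0.10) was lower. The deiodinase Dio1 had 707 UMIs in beta and 24 in alpha cells, too few there to pass the filter alone, and it was lower in beta than in delta cells (-0.94, adjusted p = 1.08e-10). Against delta cells 11 of 19 were higher and 4 lower, beside 28.3% and 25.0% of all tested genes. The median was 0.32 beside 0.02 over all genes. The list counts include genes that passed the filter through 1 type alone. In CPM 8 of the 14 and 9 of the 11 were negative. Of the list of other superoxide, metal and methionine protection, 7 of 10 were higher and 2 lower against alpha cells, and 3 of the 7 were negative in CPM. The metallothionein Mt2 was higher than in alpha cells (3.15 ± 0.08) and in delta cells (4.56 ± 0.11), and the uncoupling protein Ucp2 was lower (-0.86 ± 0.06 and -1.33 ± 0.06).

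In the glutathione system 6 of 20 tested genes were higher and 7 lower in beta than in alpha cells. Both counts are near the background shares. The transferase Gstm1 (2.20 ± 0.10) was higher. Gstm2, with 16 UMIs in alpha cells, and the microsomal Mgst1, with 13 in beta cells, passed the filter through the other type alone. Of the NRF2 list 9 of 19 were higher, with ferritin light chain Ftl1 (1.59 ± 0.05) foremost, and Me1 (-0.40 ± 0.11) was the 1 lower gene. The thioredoxin list gave 5 higher, near the background share, and 2 lower of 15. In CPM 2 of the 6, 7 of the 9 and 4 of the 5 higher calls of these 3 lists were negative, while every gene named here as higher than in alpha cells was positive in CPM too. Among the relatives and regulators of Txnip, the arrestin Arrdc4 (-2.10 ± 0.16) was lower in beta than in alpha cells, and Mlxipl, the glucose-responsive factor ChREBP, was higher (3.36 ± 0.08).

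The genes most like Txnip over the 45 sums of 9 named types and 5 mice were Ptma (Pearson r = 0.90), Txn1, the thioredoxin that Txnip binds (0.90), and Psma7 (0.89). Those most like Gpx3 were Dbpht2 (0.89), AC121821.1 (0.88) and Runx1t1 (0.87). These sums share libraries and cell-type depth, and 9872 genes were searched. Hormone UMIs were kept in the totals, which lowers all other genes together in the sums of hormone-rich types.

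Diet was compared in 5 types, to ask whether HC feeding went with other levels of these genes. None of the 10 genes was called in any of the 5 types by edgeR. Beta cells had 0 calls among 10 tested members (0.00837% of all genes), alpha cells 0 among 8 (0.0557%), delta cells 0 among 8 (0.0221%), macrophages 0 among 6 (0.0% of all genes) and endothelial cells 0 among 7 (0.037%). An unadjusted p under 0.05 was reached by 1 member in beta cells (5.02% of all genes), none in alpha (6.71%), 1 in delta (3.41%), 1 in macrophages (3.41%) and 2 in endothelial cells (3.31%). DESeq2 called none either. An exact permutation test over 5 mice cannot give a two-sided p under 0.1, so a single gene cannot pass there.

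Gpx2 in beta cells came closest. It had 11.6, 7.09 and 6.34 CPM in the chow mice and 16.7 and 12.6 in the HC mice, so the groups did not overlap. The log2 difference of HC minus chow was 0.76 ± 0.16 (SE, adjusted p = 0.271). Gpx3 and Sod1 did not overlap in beta cells either, in CPM. In these cells the groups were apart on that scale for 3 of 10 members, beside 8.94% of all tested genes. For Gpx3 the difference was 0.31 ± 0.15 (adjusted p = 0.958), and for Sod1 0.12 ± 0.10 (adjusted p = 0.958). The Gpx2 difference was 0.50 within the libraries labelled FUN and 0.89 within those labelled SKY.

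Txnip in delta cells was 89.6, 118 and 164 CPM in the chow mice and 237 and 173 in the HC mice. The lower HC mouse lay just above the highest chow mouse. The difference was 0.72 ± 0.25 (adjusted p = 0.99984), and without chow mouse 3 it was 1.00 (adjusted p = 0.042). Within the FUN libraries it was 1.41 and within the SKY libraries 0.32. In delta cells the groups were apart for 2 of 8 members, Txnip and Sod2, beside 17.0% of all tested genes.

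Gpx3 in macrophages was 58.3, 92.7 and 121 CPM in the chow mice and 140.2 and 367 in the HC mice, a difference of 1.39 ± 0.42 (adjusted p = 0.99927). HC mouse 2, the highest, also had the largest share of mixed macrophages, 29.0% beside 15.8% to 20.8% in the chow mice. In HC mouse 1, 79 of 94 macrophages were not mixed, so its mixed share lay within the chow range. Whether mixed cells account for the diet difference was not tested. Without mixed cells the counts were 1, 2 and 4 UMIs in the chow mice and 4 and 10 in the HC mice. The summed alpha markers in macrophages ranged from 20700 to 36080 CPM in chow and 30700 to 82760 in HC mice, with all 13 markers detected. In macrophages the groups were apart for 2 of 6 members, Gpx1 and Gpx3, beside 19.5% of all tested genes. Without HC mouse 2 the difference was 0.42 (adjusted p = 0.97959). Without HC mouse 1 it was 1.93 (adjusted p = 0.000734). In endothelial cells Cat (0.89 ± 0.43) and Sod1 (-0.53 ± 0.21) had unadjusted p of 0.048 and 0.017, and an adjusted p of 0.99959 each. The groups were apart for these 2 of 7 members, beside 16.6% of all tested genes. In alpha cells they overlapped in CPM for all 8 members, beside 24.4% of genes where they were apart.

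Which members were apart depended on the scale. With hormone UMIs taken out of the totals they were Gpx2 (HC above chow), Gpx4 and Sod2 (below) in beta cells, 3 of 10 beside 20.8% of all tested genes. In alpha cells Gpx4 was apart, below, 1 of 8 beside 22.5%. In delta cells Gpx3 and Txnip were apart, above, 2 of 8 beside 17.1%. In macrophages Gpx3 was apart, above, 1 of 6 beside 17.5%. In endothelial cells Cat (above) and Sod1 (below) were apart, 2 of 7 beside 16.7%. Gpx2 in beta cells, Txnip in delta cells, Gpx3 in macrophages and both endothelial genes were thus apart on both scales, and Gpx3 and Sod1 in beta cells in CPM alone.

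**Figure D4:**
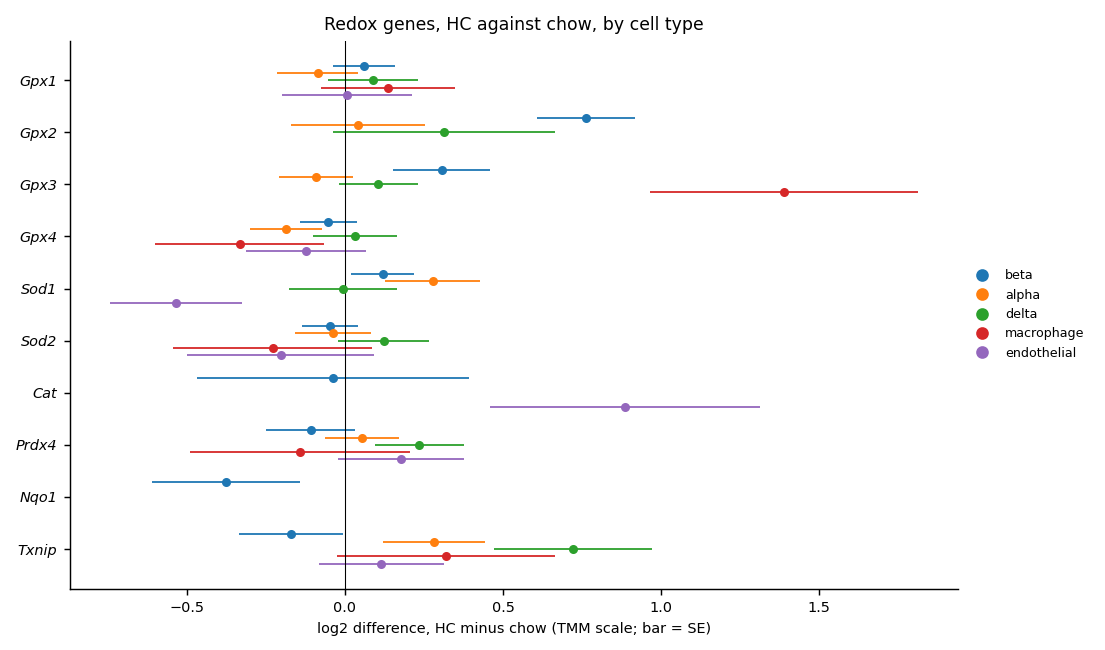
Log2 difference of HC minus chow (TMM scale, bar SE, 3 chow and 2 HC mice) for the 10 genes by cell type. None of the 39 tested differences passed an adjusted p of 0.05; Gpx3 in macrophages (1.39) and Gpx2 in beta cells (0.76) lie among the farthest from 0.

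Whether the diet difference itself varied between types was tested with the interaction of diet and type, for beta against alpha, delta, macrophage and endothelial cells. Txnip passed for beta against delta cells: the diet effect in beta minus that in delta cells was -0.89 ± 0.15 (adjusted p = 3.44e-06). It was 1 of 10 members tested, beside 0.163% of all tested genes. Of these 10, 8 had enough counts in delta cells by themselves. In beta cells the Txnip difference of HC minus chow was -0.17 ± 0.16 and in delta cells 0.72 ± 0.25. The call was absent with DESeq2 (-0.90, adjusted p = 0.99985) and without HC mouse 1 (-0.57, adjusted p = 0.55). None of the 10 members tested against macrophages and the 10 against endothelial cells passed, beside 0.0325% and 0.119% of all tested genes. Only 6 and 7 of them had enough counts in the other type by itself. Against alpha cells none of the 9 members tested passed, 8 of them with enough counts there, beside 0.228% of all tested genes. Txnip had -0.44 ± 0.12 (adjusted p = 0.060) in that comparison.

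**Figure D5:**
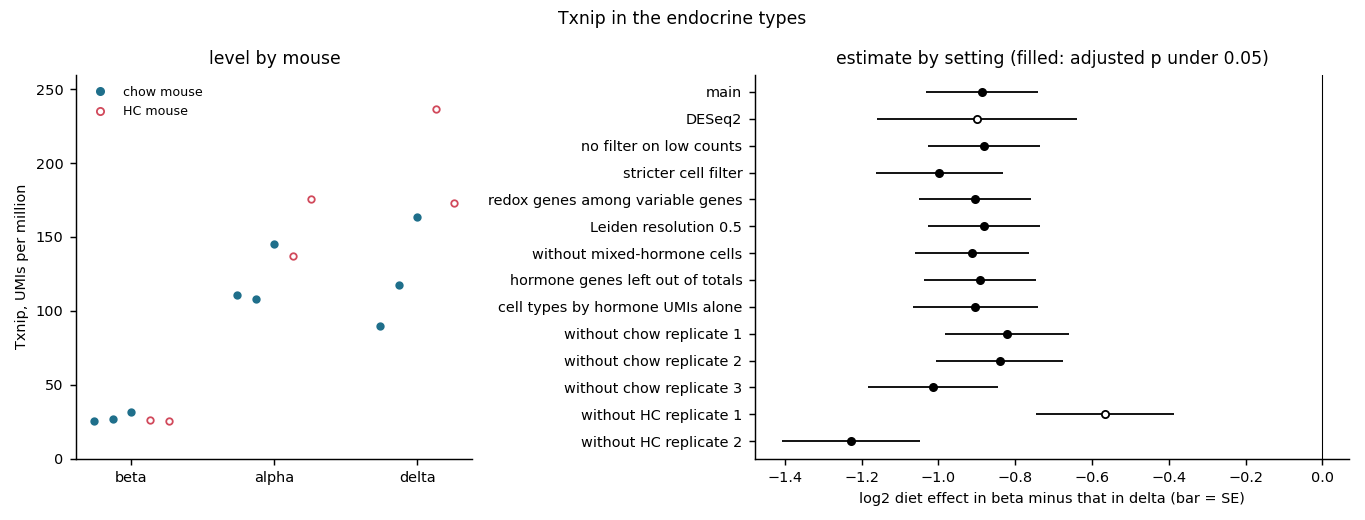
Txnip by mouse in beta, alpha and delta cells (left, CPM) and the log2 diet effect in beta minus that in delta cells under 14 settings (right, bar SE, filled where adjusted p is under 0.05). Every setting lies below 0; DESeq2 and the fit without HC mouse 1 are not called.

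The other redox lists held no called gene for HC against chow in any of the 5 types. In the interaction of diet and type 1 gene of these lists was called, Selenop, a secreted carrier of selenium, whose diet effect in beta minus that in alpha cells was 0.42 ± 0.10 (adjusted p = 0.027). The call was absent with DESeq2 (adjusted p = 0.99996), with no filter on low counts (0.055), with types by hormone UMIs alone (0.843), and without chow mouse 1 (0.765), chow mouse 2 (0.307) or HC mouse 1 (0.878). In beta cells the smallest p-values were those of Nxn (-0.54 ± 0.21), Dio1 (0.54 ± 0.23), Gclm (-0.21 ± 0.10) and Mt1 (-0.35 ± 0.15), all with adjusted p of 0.958. In delta cells the Txnip relative Arrdc3 had 0.79 ± 0.30 (adjusted p = 0.99984).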

How the data were processed

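Counts are raw UMI counts per gene and barcode, as the authors deposited them. Per the submitters' processing notes they used Cell Ranger 4.0.0 and mm10; the annotation release and cell calling are not given in the sources used here. Barcodes with at least 1000 UMIs, 500 genes and at most 15% mitochondrial UMIs were kept. No doublet caller was used; removing mixed-hormone cells was an alternative. Cells were clustered in scanpy 1.11.5 (Leiden, resolution 1.0, 2000 variable genes, without redox genes) into 18 clusters. Clusters were named from marker lists, by a rule on their 15 leading genes set after the clusters were seen; 6 clusters with 10.8% of cells stayed unnamed. Counts were summed per mouse over types with at least 20 cells in each mouse, and tested with edgeR 4.0.16 (TMM, filterByExpr, robust quasi-likelihood, two-sided, Benjamini-Hochberg over all genes, threshold 0.05), with the mouse as a block between types, because both sums come from 1 mouse. The tests were checked on simulated data. All 10 genes were described in every type; other genes were named by smallest p, at most 4 per list and direction. Alternatives were DESeq2 1.42.0, other filters, clusterings and scalings, leaving out each mouse, prefix, age, and the title's grouping; types by hormone UMIs alone was chosen after seeing the data. The members and lists were chosen with earlier results of these data known. Mice are the replicates. FUN and SKY begin the library names, and the labels do not say what they mark. Coordinates and promoters are of GRCm38 and RefSeq; all 10 genes matched.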

Additional observations from a re-analysis of the deposited data

Results flagged for a closer look

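The diet effect on Txnip differed between beta and delta cells by -0.886 on the log2 scale, by the test of the interaction. In HC minus chow it was -0.17 in beta and 0.72 in delta cells. The estimate was -0.57 without HC mouse 1, whose delta cells had a Txnip level of 237 CPM, and -1.23 without HC mouse 2.

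Gpx4 in Schwann cells, which were too few for the comparisons (69 cells, 9 to 19 per mouse), reached a mean of 1584 CPM, above every compared type. The values were 1607, 1309 and 1479.8 in the chow mice and 1704 and 1820.2 in the HC mice, from 155 UMIs in all, and each mouse had more than the 3 counts that a count of 0 allows.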

How the results depend on the processing

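No paired analysis was possible for diet because the replicate numbers follow accession order. Between types, where the mouse was the block, the fit with no replicate block gave 4, 3, 3, 3, 2 and 2 members higher in beta and 3, 6, 6, 6, 5 and 5 lower against alpha, delta, ductal, endothelial, macrophage and stromal cells. Over all genes this fit called 3355 higher and 3204 lower of 11717 against alpha and 2983 and 2880 of 11637 against delta cells. Against ductal cells it called 3281 and 3208 of 11597, and against endothelial cells 4103 and 3293 of 11448. Against macrophages it called 2630 and 2229 of 11115, and against stromal cells 2390 and 1962 of 11237.

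For HC against chow the count of called members rose from 0 to 1 with no filter on low counts in beta (Gpx2), delta (Txnip) and macrophages (Gpx3), and with age as a term in macrophages. Leaving out a mouse gave 0 to 1 in delta and macrophages. For the interaction against alpha cells it was 1 at Leiden resolution 0.5 (Gpx2), without mixed-hormone cells (Gpx3), and with types by hormone UMIs alone (Gpx3), and 0 to 1 on leaving out a mouse (1 without chow mouse 1, Txnip). Against delta cells it was 0 with DESeq2 and 0 to 1 on leaving out a mouse (0 without HC mouse 1). Against macrophages it was 1 at resolution 0.5 (Gpx3) and 0 to 1 on leaving out a mouse (1 without HC mouse 1). With DESeq2, 1 member was higher in beta than in ductal cells and 1 than in macrophages, in place of 3 each; leaving out a mouse gave 1 to 3 against ductal cells (1 without HC mouse 2). The cause was not tested.

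The sign reversed 4 times. Gpx3 in macrophages, HC minus chow, was -0.43 with the diet taken from the title. Gpx3 in the interaction against endothelial cells ran from -1.30 (without chow mouse 2, which held 28 of its 42 endothelial UMIs, too few to pass the filter there) to 2.41 on leaving out a mouse. Beta against macrophage cells without mixed-hormone cells was 0.29 for Gpx3 and 0.016 for Gpx4. Gpx3 against endothelial cells, 0.82 and not called with all cells, was 2.14 without chow mouse 2. The stricter cell filter could not be run for macrophage, endothelial and stromal cells, nor the removal of mixed cells for ductal cells, because a mouse then had under 20 cells; types by hormone alone exist for endocrine cells only. Prefix, age and diet could be tried only 1 at a time. With 2 HC mice, a gene near the 3-count floor, such as Nqo1 outside beta cells, could not be compared by diet.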

Other observations

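The 193 cells of an unnamed cluster had the highest mean Gpx1 of all clusters, at 1053 ± 385 CPM (SD, n = 5). The leading genes of this cluster included genes of MHC class II and no C1q gene. Its values ran from 602.6 to 1636 CPM. Chow mice 1 and 2 and HC mouse 1 had 19, 16 and 19 of its cells, under the limit of 20 used for the comparisons. Macrophages without mixed cells had 972.6 ± 97.8 CPM, from 880.5 to 1080, which lies within that range. The ranking therefore does not set this cluster apart from macrophages. Cells with pancreatic polypeptide as their main hormone had a Gpx3 level of 813 and 711 CPM in chow mice 2 and 3 and 769.9 in HC mouse 2; the other mice had 4 such cells each.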
